A study of Mus musculus with 9 samples.

Results

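The 8 genes described here are homeostatic microglia genes, transcripts that mark the resident immune cells of the brain at rest: Tmem119, P2ry12, P2ry13, Sall1, Gpr34, Olfml3, Fcrls and Selplg. They were taken by gene name from the deposited table, where each has a single row, and are 8 of its 35112 genes. All 8 were among the 21900 genes with enough counts to be tested. The study asked what P7C3-A20, a neuroprotective aminopropyl carbazole, does to brain transcripts after intracerebral haemorrhage (ICH, bleeding into brain tissue). Brain RNA was taken at 72 hours from wild type C57BL/6 mice in 3 groups of 3 mice: ICH given P7C3-A20 (ICH+P7C3-A20), ICH, and sham (control treatment). The labels state no dose, dosing schedule, brain region, sex or age, and do not say whether the ICH and sham mice received a vehicle. RNA of bulk brain tissue was sequenced, and the labels name no isolated cell type.

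Microglia settle the brain before birth and survey it with moving processes. Their resting programme is maintained by TGF-beta signalling, by signals through the CSF1 receptor and by transcription factors that include SALL1 and PU.1, and in mouse models of injury and neurodegeneration single microglia lose much of it as they become activated. P2RY12 and P2RY13 are receptors for ADP, the nucleotide that damaged cells and activated platelets release. P2RY12 steers microglial processes toward a lesion and also acts on platelets. Monocyte-derived macrophages that enter after a bleed express little of most of these genes, but Selplg is shared with blood leukocytes.

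Libraries held 51537047 to 63324728 estimated counts, and the 8 genes had 411 to 15322 estimated counts in every library, far above the 3 counts taken as the limit of detection (0.0455 to 0.0625 CPM, counts scaled to library size, for counting error only). ICH+P7C3-A20 1 was unlike ICH+P7C3-A20 2 and 3. Its 8 oligodendrocyte markers summed to 699 FPKM (fragments scaled to transcript length and library size), against 1719 and 1487 FPKM in ICH+P7C3-A20 2 and 3. Its 8 neuronal markers summed to 583 FPKM, against 476 and 403 FPKM. It also lay apart on PC1 and PC2, the main axes of difference between libraries over all tested genes. These were -38.3 and -101.9 in ICH+P7C3-A20 1, 21.4 and 1.95 in ICH+P7C3-A20 2, and 22.5 and -24.2 in ICH+P7C3-A20 3. Several counts of calls that rest on ICH+P7C3-A20 1 are also given without it, while group means, ratios, shares and most log2 changes include it. Sham 3 had a higher pan-myeloid sum (122 FPKM) than sham 1 and 2 (80.7 and 84.6 FPKM). Replicates are separate mice, and p-values measure the spread between them.

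Positions are those of the deposited table, and 7 of the 8 are identical in GENCODE M21 (GRCm38). P2ry12 (ENSMUSG00000036353, chr3:59216272-59262871, minus strand) and P2ry13 (ENSMUSG00000036362, chr3:59207892-59210882, minus strand) lie 5389 bases apart, and the plus-strand gene Med12l spans both. Gpr34 (ENSMUSG00000040229, chrX:13632089-13640858, plus strand) lies within Cask on the opposite strand. Tmem119 (ENSMUSG00000054675, chr5:113793729-113800516) and Selplg (ENSMUSG00000048163, chr5:113818536-113830501, ending at 113832644 in GENCODE M21) are near neighbours, both on the minus strand. Fcrls (ENSMUSG00000015852, chr3:87250758-87263738), Olfml3 (ENSMUSG00000027848, chr3:103722222-103738001) and Sall1 (ENSMUSG00000031665, chr8:89027235-89044162) are also on the minus strand. Among GENCODE M21 transcripts, 1.51% of the 50-base words of Selplg and 0.0483% of those of Olfml3 also stand in transcripts of other genes, and none of those of the other 6 genes do.

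RefSeq promoter windows (GRCm38.p6, 300 bases from 250 before to 50 after a start) were at hand for 5 of the 8 genes: P2ry13, P2ry12, Fcrls, Olfml3 and Sall1. The 4 stretches below, which hold no annotated exon, are shown because PU.1, a transcription factor that microglia depend on, binds a GAGGAA core. They are written 5′ to 3′ with that core in capitals. The Fcrls stretch (78 bases) lies upstream of the RefSeq start but inside the longer deposited gene, and the others are the 250 bases before the start.
Fcrls (chr3:87263600-87263677, minus strand): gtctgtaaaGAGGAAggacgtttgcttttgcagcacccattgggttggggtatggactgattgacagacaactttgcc
P2ry13 (chr3:59210883-59211132, minus strand): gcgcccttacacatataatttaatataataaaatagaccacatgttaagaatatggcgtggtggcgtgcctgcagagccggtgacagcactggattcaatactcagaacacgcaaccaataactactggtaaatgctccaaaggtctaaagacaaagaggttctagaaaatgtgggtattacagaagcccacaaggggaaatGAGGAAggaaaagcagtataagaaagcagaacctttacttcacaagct
Olfml3 (chr3:103738002-103738251, minus strand): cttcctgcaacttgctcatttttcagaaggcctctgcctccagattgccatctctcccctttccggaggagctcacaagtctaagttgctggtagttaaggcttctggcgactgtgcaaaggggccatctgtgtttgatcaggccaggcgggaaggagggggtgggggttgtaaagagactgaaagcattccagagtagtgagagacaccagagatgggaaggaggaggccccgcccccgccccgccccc
Sall1 (chr8:89044163-89044412, minus strand): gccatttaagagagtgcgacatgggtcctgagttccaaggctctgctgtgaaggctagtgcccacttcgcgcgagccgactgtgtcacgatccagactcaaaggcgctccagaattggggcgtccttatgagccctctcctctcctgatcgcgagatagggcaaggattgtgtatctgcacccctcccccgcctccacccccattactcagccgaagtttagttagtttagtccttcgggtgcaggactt
On either strand, GAGGAA stood in the windows of Fcrls and P2ry13, that is 2 of 5, and in 28.3% of all 32851 promoter windows. The related ETS core GGAAGT, which can overlap GAGGAA by its GGAA letters, stood in those of Fcrls, P2ry12 and Sall1, against 23.8% of all windows. The MEF2 motif (3.69% of windows) and the AP-1 motif TGANTCA (7.81%) were in none of the 5. A match is only a run of letters, and binding was not measured.

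ICH against sham asked how a haemorrhage alters brain transcripts. All 8 homeostatic genes were higher in ICH than in sham at 72 hours, by 2.17-fold for Sall1 to 13.2-fold for Fcrls. edgeR's quasi-likelihood test called 8 of 8 higher (Benjamini-Hochberg adjusted p under 0.05), where 15.6% of all tested genes were called higher and 26.0% in either direction. Their median log2 change was 1.62, against a median of 0.00 over all tested genes. CPM of the 2 groups did not overlap for any of the 8, as for 23.3% of all tested genes in this direction. In bulk tissue, a change in the number of microglia and a change in RNA per cell cannot be told apart.

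**Figure D1:**
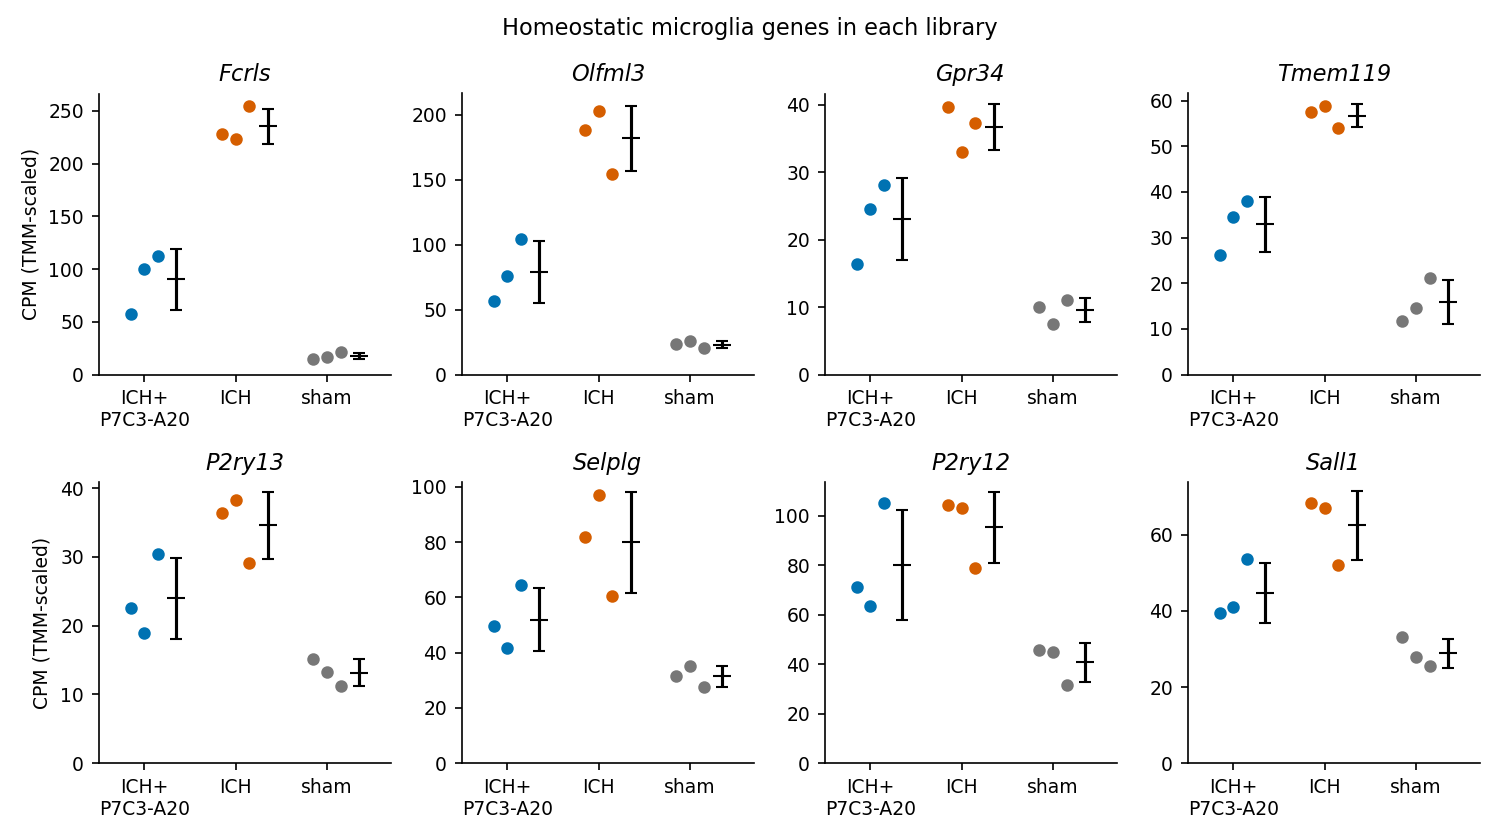
CPM (scaled to the library by TMM) of the 8 genes in each library, with the 3 libraries of a group as points and the mean ± SD beside them (n = 3). Every ICH library lies above every sham library in all 8 panels, and Fcrls spans the widest range, 15.2 to 254 CPM.

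Sall1 encodes a zinc finger transcription factor that maintains microglial identity. It had 39.5, 40.9 and 53.8 CPM in ICH+P7C3-A20 1 to 3, 68.4, 67.0 and 52.1 CPM in ICH, and 33.1, 27.9 and 25.5 CPM in sham. The lowest ICH library lay below the highest ICH+P7C3-A20 library, and sham lay below both. Its log2 change in ICH against sham was 1.12 ± 0.16 (edgeR adjusted p = 0.00055), where the error is the change over the root of edgeR's F. This was the smallest rise of the 8.

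Of the receptors, P2ry12 had 71.2, 63.5 and 105 CPM in ICH+P7C3-A20, 104, 103 and 78.8 CPM in ICH, and 45.8, 44.9 and 31.7 CPM in sham. One ICH+P7C3-A20 library was as high as the highest ICH library, and sham was lowest throughout. The log2 change in ICH against sham was 1.23 ± 0.21 (edgeR adjusted p = 0.00168). Its neighbour P2ry13, the other ADP receptor, had 22.5, 18.9 and 30.5 CPM in ICH+P7C3-A20, 36.4, 38.3 and 29.1 CPM in ICH, and 15.1, 13.2 and 11.2 CPM in sham. The order of the libraries was much as for P2ry12, with ICH+P7C3-A20 3 above ICH 3 in both. P2ry13 rose by 1.39 ± 0.19 on the log2 scale in ICH (edgeR adjusted p = 0.000449). Gpr34, a receptor for lysophosphatidylserine, had 16.4, 24.6 and 28.1 CPM in ICH+P7C3-A20, 39.7, 33.0 and 37.3 CPM in ICH, and 9.96, 7.56 and 11.1 CPM in sham. The 3 groups did not overlap. Gpr34 rose by 1.94 ± 0.21 in ICH against sham (edgeR adjusted p = 8.53e-05).

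Of the other surface proteins, Tmem119, a transmembrane protein used to tell resident microglia from other myeloid cells, had 26.3, 34.5 and 37.9 CPM in ICH+P7C3-A20, 57.4, 58.7 and 54.0 CPM in ICH, and 11.7, 14.6 and 21.1 CPM in sham. The groups were apart, with a narrow spread in ICH. Tmem119 rose by 1.84 ± 0.21 in ICH (edgeR adjusted p = 0.000113). Fcrls, an Fc receptor-like protein found on mouse microglia, had 57.7, 101 and 113 CPM in ICH+P7C3-A20, 228, 223 and 254 CPM in ICH, and 15.2, 16.9 and 21.3 CPM in sham. Its 3 groups were the widest apart of the 8 genes, and its log2 change of 3.72 ± 0.24 in ICH against sham (edgeR adjusted p = 6.58e-06) was the largest of the 8. Selplg encodes PSGL-1, the selectin ligand. It had 49.7, 41.8 and 64.5 CPM in ICH+P7C3-A20, 81.8, 97.2 and 60.6 CPM in ICH, and 31.7, 35.2 and 27.6 CPM in sham. ICH 3 lay within the range of ICH+P7C3-A20. Selplg rose by 1.34 ± 0.20 in ICH (edgeR adjusted p = 0.000666).

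Olfml3 encodes a secreted olfactomedin-like protein. It had 56.7, 75.9 and 104 CPM in ICH+P7C3-A20, 189, 203.1 and 154 CPM in ICH, and 23.4, 25.7 and 20.5 CPM in sham, with no overlap between groups. Its log2 change in ICH was 2.97 ± 0.21 (edgeR adjusted p = 8.07e-06), a 7.84-fold difference.

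The 8 calls of ICH against sham were made in all 16 alternative fits, among them each library left out in turn and quantile-normalized FPKM, a scaling in which 44.3% of all calls were higher, against 60.0% here (69.4% with library totals alone). Genes that overlap members of the set were not called higher. Med12l, which spans P2ry12 and P2ry13, had a log2 change of -0.60 ± 0.12 (edgeR adjusted p = 0.00485), and Cask, which spans Gpr34, of -0.20 ± 0.10 (edgeR adjusted p = 0.193). The libraries were made with a strand-marking kit, but the sources used here do not give the strand setting of the counting, so the split of reads between these overlapping genes is uncertain. Beside Tmem119 and Selplg, the flanking genes Iscu and Coro1c had log2 changes of -0.03 ± 0.18 (edgeR adjusted p = 0.926) and 0.34 ± 0.11 (edgeR adjusted p = 0.0365). Cd5l, the nearest gene above Fcrls at 94142 bases and a macrophage gene, rose by 5.32 ± 0.38 (edgeR adjusted p = 8.07e-06).

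ICH+P7C3-A20 against ICH asked whether the compound altered the response. In treated mice Fcrls was 2.60-fold lower than in ICH, Olfml3 2.31-fold lower and Tmem119 1.72-fold lower. edgeR called these 3 of 8 genes lower and none higher, where 6.05% of all tested genes were called lower and 8.74% in either direction. The log2 changes were -1.38 ± 0.22 for Fcrls (edgeR adjusted p = 0.00739), -1.20 ± 0.20 for Olfml3 (edgeR adjusted p = 0.00802) and -0.79 ± 0.20 for Tmem119 (edgeR adjusted p = 0.0376). The other 5 had values below 0 that did not pass: Gpr34 at -0.67 ± 0.20 (edgeR adjusted p = 0.0654), Selplg at -0.62 ± 0.19 (0.0745), P2ry13 at -0.53 ± 0.19 (0.11), Sall1 at -0.48 ± 0.16 (0.084) and P2ry12 at -0.25 ± 0.21 (0.51). The median log2 change of the 8 was -0.64, against -0.01 over all tested genes. CPM of the 2 groups did not overlap, with ICH+P7C3-A20 lower, for 4 genes (Fcrls, Olfml3, Gpr34 and Tmem119), as for 18.5% of all tested genes. The overlap depended on the scale. In the deposited FPKM, the highest ICH+P7C3-A20 values of P2ry13, Sall1 and Selplg were 9.40, 7.97 and 11.8. Their lowest ICH values were 10.7, 9.17 and 13.1 FPKM, while P2ry12 overlapped on both scales. The share of all genes without overlap in FPKM was not counted.

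Fcrls and Olfml3 were called lower in every alternative fit. Without ICH+P7C3-A20 1, edgeR called only these 2, and Tmem119 had an adjusted p of 0.133 there. The log2 changes were then smaller, -1.141 for Fcrls, -1.015 for Olfml3 and -0.648 for Tmem119. Over all tested genes, 683 of 22720 were called lower in that fit. The Tmem119 call also ended, by edgeR adjusted p, without ICH+P7C3-A20 2 (0.0599) and without ICH 1 (0.114), ICH 2 (0.119) or ICH 3 (0.0942). It ended as well with library totals alone (0.0509) and, by limma, on log2(FPKM + 1) (0.0508) and log2(FPKM + 0.1) (0.0675). Without ICH+P7C3-A20 3, whose CPM was the highest of its group for all 8 genes, 6 of 8 were called lower, beside 1096 of 22694 tested genes. Of all calls, 30.8% were higher, 19.5% with library totals alone and 40.6% with quantile-normalized FPKM.

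**Figure D2:**
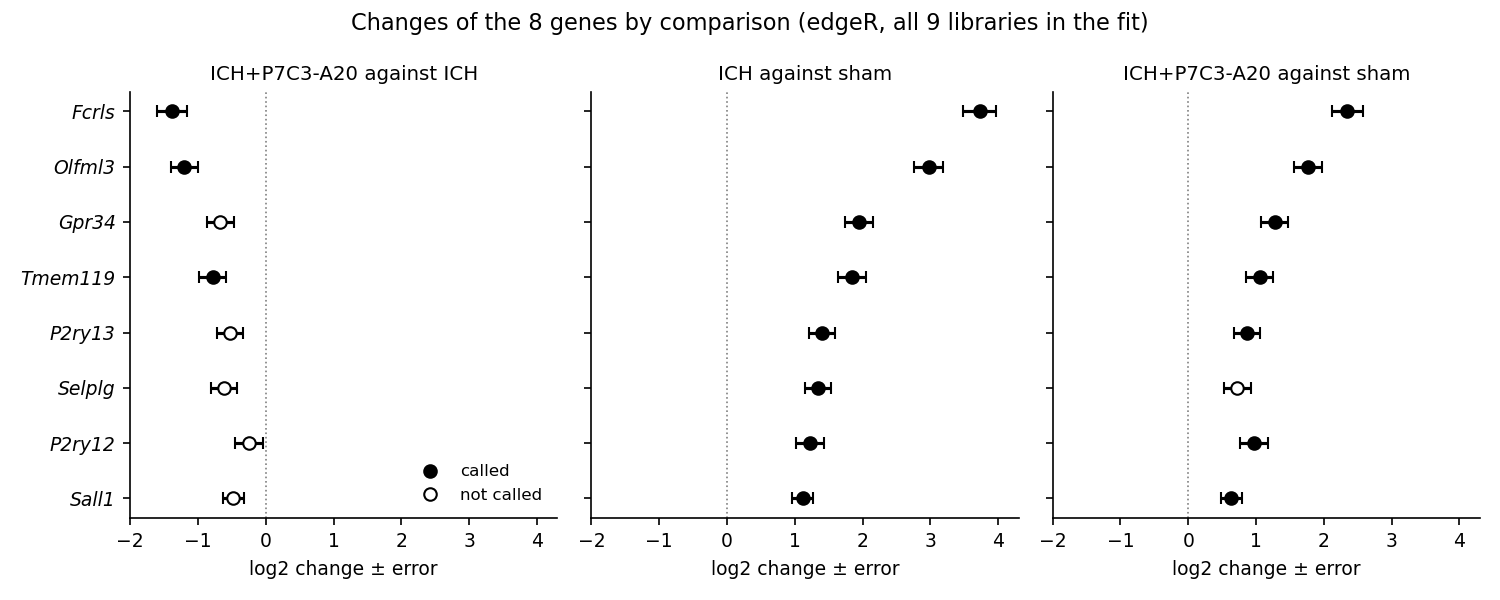
Log2 change ± error of each gene in 3 comparisons (edgeR, all 9 libraries), with filled points for an adjusted p under 0.05. All 8 are filled and right of 0 in ICH against sham, 3 are filled and left of 0 in ICH+P7C3-A20 against ICH, and 7 are filled and right of 0 in ICH+P7C3-A20 against sham, which shares its libraries with the other comparisons.

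ICH+P7C3-A20 against sham asked whether treated brains still differed from sham ones. Of the 8 genes 7 were called higher, where 4.58% of all tested genes were called higher and 5.32% in either direction. Fcrls was 5.08-fold higher than in sham (log2 change 2.34 ± 0.23, edgeR adjusted p = 0.000478) and Olfml3 3.40-fold higher (1.77 ± 0.20, edgeR adjusted p = 0.000927). The smallest called change was 0.63 ± 0.16 for Sall1 (edgeR adjusted p = 0.0445). Selplg, at 0.72 ± 0.19, was not called (edgeR adjusted p = 0.0612). The log2 changes of the other 4 were 1.27 ± 0.21 for Gpr34, 1.05 ± 0.20 for Tmem119, 0.97 ± 0.21 for P2ry12 and 0.86 ± 0.19 for P2ry13 (edgeR adjusted p 0.00544, 0.0136, 0.0226 and 0.026). The median over the 8 was 1.01, against 0.03 over all tested genes, and CPM of the 2 groups did not overlap for any of the 8, as for 12.6% of tested genes in this direction. Without ICH+P7C3-A20 1 the count was again 7, but it was 3 (Fcrls, Olfml3 and Gpr34) without ICH+P7C3-A20 3 and 4 without sham 2 or without sham 3. Genes called higher in these fits, in the same order, were 1244 of 22720, 496 of 22694, 732 of 22730 and 1033 of 22695 tested. Only the calls of Fcrls, Olfml3 and Gpr34 held in all 16 alternative fits.

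Levels per transcript length, in FPKM, allow the genes to be ordered within a group. Fcrls led in ICH+P7C3-A20 at 32.4 ± 11.8 FPKM (SD, n = 3), followed by P2ry12 at 25.7 ± 5.76 FPKM, an order that 2 of 3 libraries showed. In ICH, Fcrls led by far at 87.0 ± 12.6 FPKM, and P2ry12 (32.0 ± 3.15 FPKM), Olfml3 (25.2 ± 1.77 FPKM) and Tmem119 (21.03 ± 0.648 FPKM) followed with ranges that did not overlap. In sham the order was different, with P2ry12 first at 13.2 ± 1.62 FPKM, clear of Fcrls at 6.39 ± 1.68 FPKM. Below P2ry12, no pair of neighbours in the sham order had separate ranges, and Olfml3 was last at 3.11 ± 0.182 FPKM. Likewise in ICH+P7C3-A20, the 6 genes below P2ry12, led by Tmem119 at 11.8 ± 2.81 FPKM and ending with Sall1 at 7.01 ± 1.14 FPKM, were not separated from their neighbours. Sall1 was also last in ICH, at 10.2 ± 0.955 FPKM.

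The 8 genes together summed to 83.5, 124.5 and 135.6 FPKM in ICH+P7C3-A20 1 to 3, 221.4, 209.1 and 224.0 FPKM in ICH, and 45.55, 45.93 and 50.02 FPKM in sham. The makeup of this sum differed between the groups. Fcrls took 22.7% to 32.6% of it in ICH+P7C3-A20, 36.6% to 45.1% in ICH and 11.3% to 16.6% in sham, while P2ry12 took 18.9% to 25.6% in ICH+P7C3-A20, 12.8% to 15.8% in ICH and 22.6% to 31.1% in sham. The ratio of Fcrls to P2ry12 FPKM, chosen after its values were seen and so a description only, was 0.884, 1.73 and 1.17 in ICH+P7C3-A20, 2.39, 2.36 and 3.52 in ICH, and 0.362, 0.41 and 0.735 in sham. It was above 2 in every ICH library and under 1 in every sham library.

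**Figure D3:**
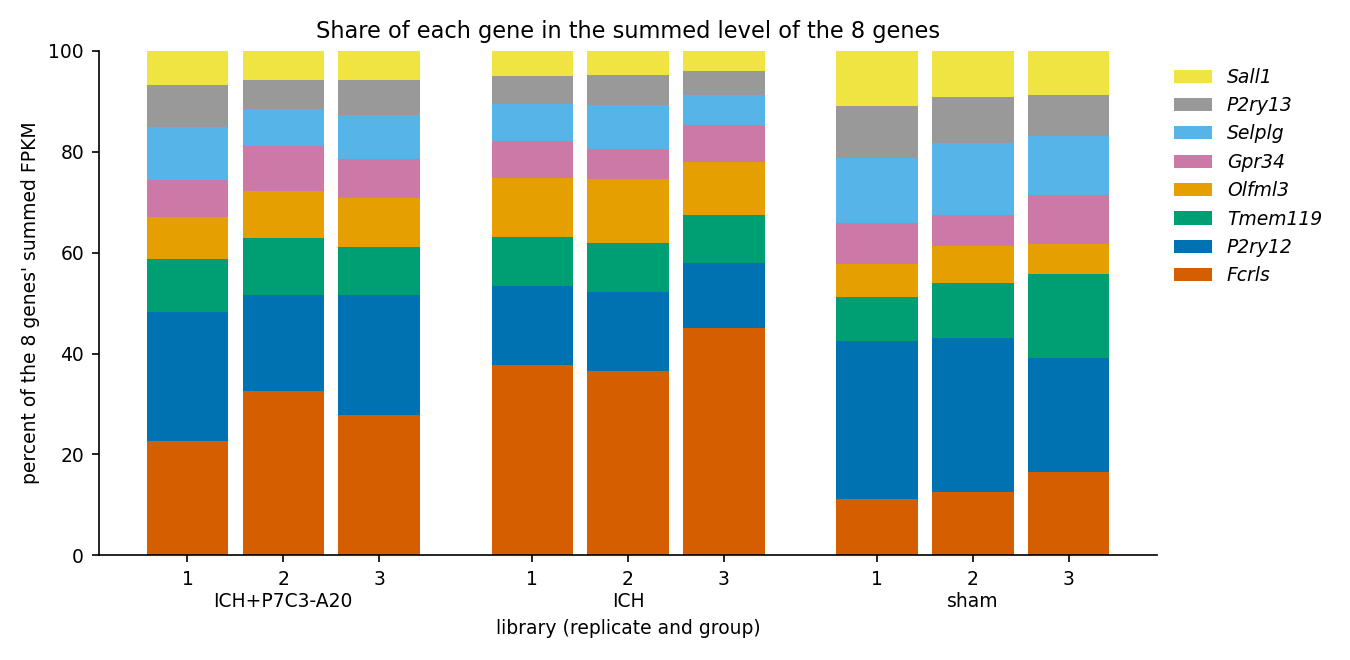
Percent of the summed FPKM of the 8 genes that each gene took, stacked to 100% for each library. The Fcrls share at the bottom is largest in the 3 ICH libraries (36.6% to 45.1%) and smallest in sham (11.3% to 16.6%), where P2ry12 takes 22.6% to 31.1%.

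Genes that microglia share with macrophages and other myeloid cells give a second scale. In ICH against sham, 10 of 10 pan-myeloid genes rose, with a median log2 change of 3.08. Tyrobp, an adaptor of myeloid receptors, rose by 3.15 ± 0.21 (edgeR adjusted p = 6.84e-06), the lysosomal gene Cd68 by 3.91 ± 0.26 (edgeR adjusted p = 7.40e-06) and Ptprc, the leukocyte antigen CD45, by 3.38 ± 0.25 (edgeR adjusted p = 9.15e-06). Of the 10, 9 fell in ICH+P7C3-A20 against ICH (median -1.25), but 7 without ICH+P7C3-A20 1 and 4 without ICH 2. Calls over all tested genes dropped too, from 1324 of 21900 called lower with all libraries. They were 683 of 22720 without ICH+P7C3-A20 1 and 1213 of 22622 without ICH+P7C3-A20 2. Without ICH 1, ICH 2 and ICH 3 they were 597 of 22716, 465 of 22664 and 592 of 22628. Smaller list counts below, with a library left out, stand beside these drops.

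Each gene was therefore also expressed as log2(FPKM + 0.1) minus the mean of the 10 pan-myeloid genes in the same library. The pan-myeloid genes themselves had a median log2 change of 3.08 in ICH against sham, against 0.00 over all tested genes. A gene with no change would therefore also be lower on this ratio scale, so this direction alone sets no gene apart. The share of all genes lower on it was not counted. On this ratio scale 6 of the 8 were lower in ICH than in sham, without overlap. The differences were -1.83 for Sall1, -1.70 for P2ry12, -1.61 for Selplg, -1.55 for P2ry13, -1.06 for Tmem119 and -0.996 for Gpr34. Fcrls instead was higher by 0.79, without overlap, and Olfml3 differed by 0.01 with overlapping groups. Sall1 stood at -0.75, -1.10 and -1.22 relative to the pan-myeloid genes in ICH+P7C3-A20 1 to 3, between -1.99 and -1.69 in ICH, and between -0.26 and 0.24 in sham.

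In ICH+P7C3-A20 against ICH the same 6 genes were higher on the ratio scale, without overlap, by 0.50 for Tmem119 to 1.03 for P2ry12, while Fcrls (-0.13) and Olfml3 (0.07) overlapped. The pan-myeloid genes had a median log2 change of -1.25 there, against -0.01 over all tested genes. A gene with no change would therefore also be higher on this scale. The share of all genes higher on it without overlap was not counted. In ICH+P7C3-A20 against sham, Sall1, Selplg, P2ry13 and Tmem119 were lower without overlap (-1.01 to -0.56), P2ry12 (-0.67) and Gpr34 (-0.39) were lower with overlap, and Fcrls was higher by 0.66 without overlap. The pan-myeloid median was 1.82 in this comparison, against 0.03 over all tested genes, so a gene with no change would be lower. The share of all genes lower without overlap was not counted here either. With 3 libraries against 3, an exact two-sided permutation test cannot go below p = 0.1, the value of each difference named as without overlap (0.133 after Benjamini-Hochberg adjustment over 24 tests). None of these ratios can therefore pass 0.05.

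**Figure D4:**
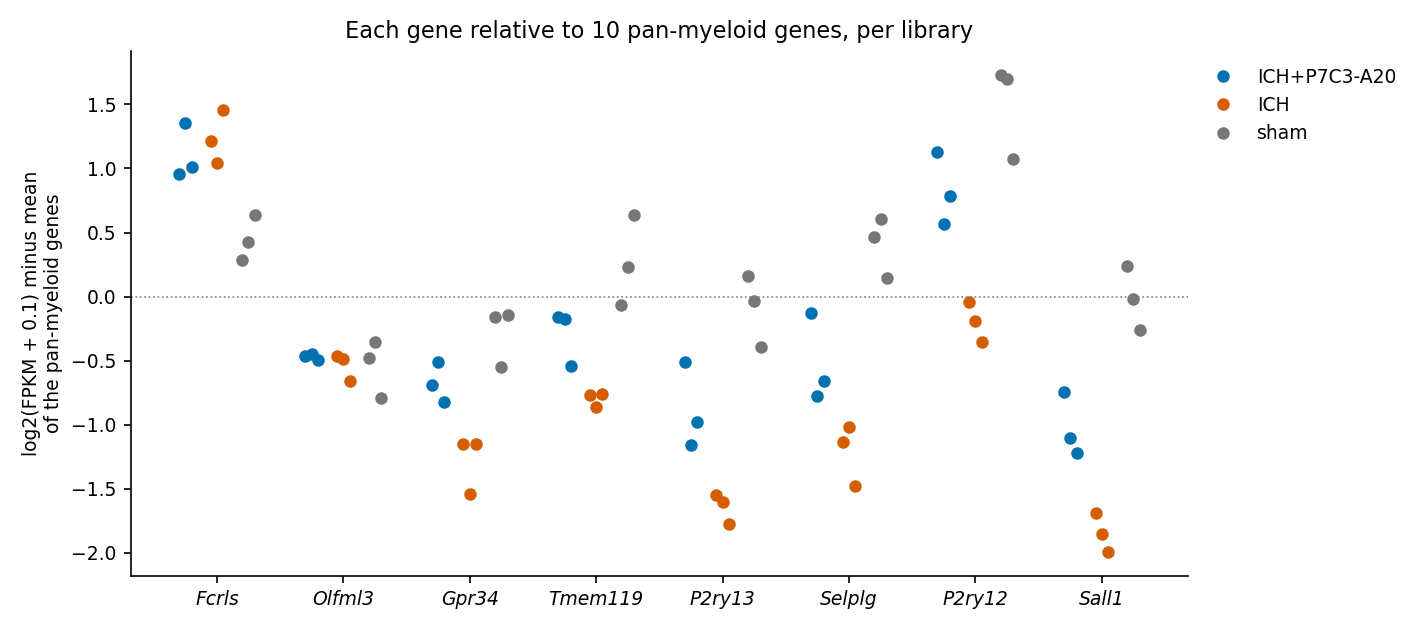
Log2(FPKM + 0.1) of each gene minus the mean of 10 pan-myeloid genes, 1 point per library. For Gpr34, Tmem119, P2ry13, Selplg, P2ry12 and Sall1 the 3 ICH points lie below all sham points and all ICH+P7C3-A20 points, whereas Fcrls lies higher in ICH than in sham and Olfml3 overlaps.

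Among 20 further genes of the resting microglial signature, 14 rose in ICH against sham and none fell, with a median log2 change of 0.99. The fractalkine receptor gene Cx3cr1 rose by 2.04 ± 0.16 (edgeR adjusted p = 1.50e-05), the UDP receptor gene P2ry6 by 3.69 ± 0.25 (edgeR adjusted p = 7.40e-06) and the Golgi protein gene Golm1 by 2.17 ± 0.16 (edgeR adjusted p = 9.15e-06). Of the 20, 10 fell in ICH+P7C3-A20 against ICH (median -0.60), a count that was 7 without ICH+P7C3-A20 1, 4 without ICH 1, 1 without ICH 2 and 5 without ICH 3. Cx3cr1 fell by 0.88 ± 0.16 (edgeR adjusted p = 0.0104), a call that ended without ICH 2 (0.0507). Against sham, 11 of the 20 were higher in ICH+P7C3-A20.

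Activation and infiltration markers had larger medians in ICH. Of 18 disease-associated microglia genes, 18 rose (median 2.51), with the inhibitory receptor gene Lilrb4a at 6.67 ± 0.34 (edgeR adjusted p = 4.95e-06), Gpnmb, a glycoprotein of lipid-laden phagocytes, at 6.46 ± 0.36 (edgeR adjusted p = 6.09e-06) and the integrin gene Itgax at 4.65 ± 0.29 (edgeR adjusted p = 6.31e-06). Monocyte and macrophage markers rose in 14 of 14 (median 3.89), among them lysozyme gene Lyz2 at 5.21 ± 0.30 and arginase gene Arg1 at 7.21 ± 0.44 (edgeR adjusted p = 6.31e-06 for both) and the fibronectin gene Fn1 at 3.07 ± 0.22 (edgeR adjusted p = 8.07e-06). Their summed level was 40.4 to 83.3 FPKM in ICH+P7C3-A20, 216.5 to 276.9 FPKM in ICH and 11.8 to 13.3 FPKM in sham. Relative to ICH, 11 of 18 disease-associated genes fell in ICH+P7C3-A20 (7 without ICH 2 or ICH 3), as did 10 of 14 monocyte and macrophage genes (7 without ICH+P7C3-A20 1, 5 without ICH 1 or ICH 3, 4 without ICH 2).

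Border-associated macrophages are the resident macrophages of vessels and meninges. Of 11 tested markers, 9 rose and 1 fell (0 without ICH 1, ICH 3, sham 1 or sham 3) in ICH against sham, with rises in the scavenger receptor gene Stab1 (3.72 ± 0.21, edgeR adjusted p = 5.81e-06), Ms4a7 (5.43 ± 0.51, edgeR adjusted p = 3.85e-05) and the chemokine gene Pf4 (3.79 ± 0.45, edgeR adjusted p = 0.000174), and 4 fell in ICH+P7C3-A20 against ICH. Of 10 cell cycle genes 10 rose in ICH (median 3.34) and 10 fell in ICH+P7C3-A20 against ICH (median -1.51), the mitotic kinase gene Plk1 by 1.52 ± 0.21 (edgeR adjusted p = 0.00636). The count that fell was 7 to 10 with a library left out, and 10 without ICH+P7C3-A20 1. The part of infiltrating, border or dividing cells in the values of the 8 genes was not tested.

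**Figure D5:**
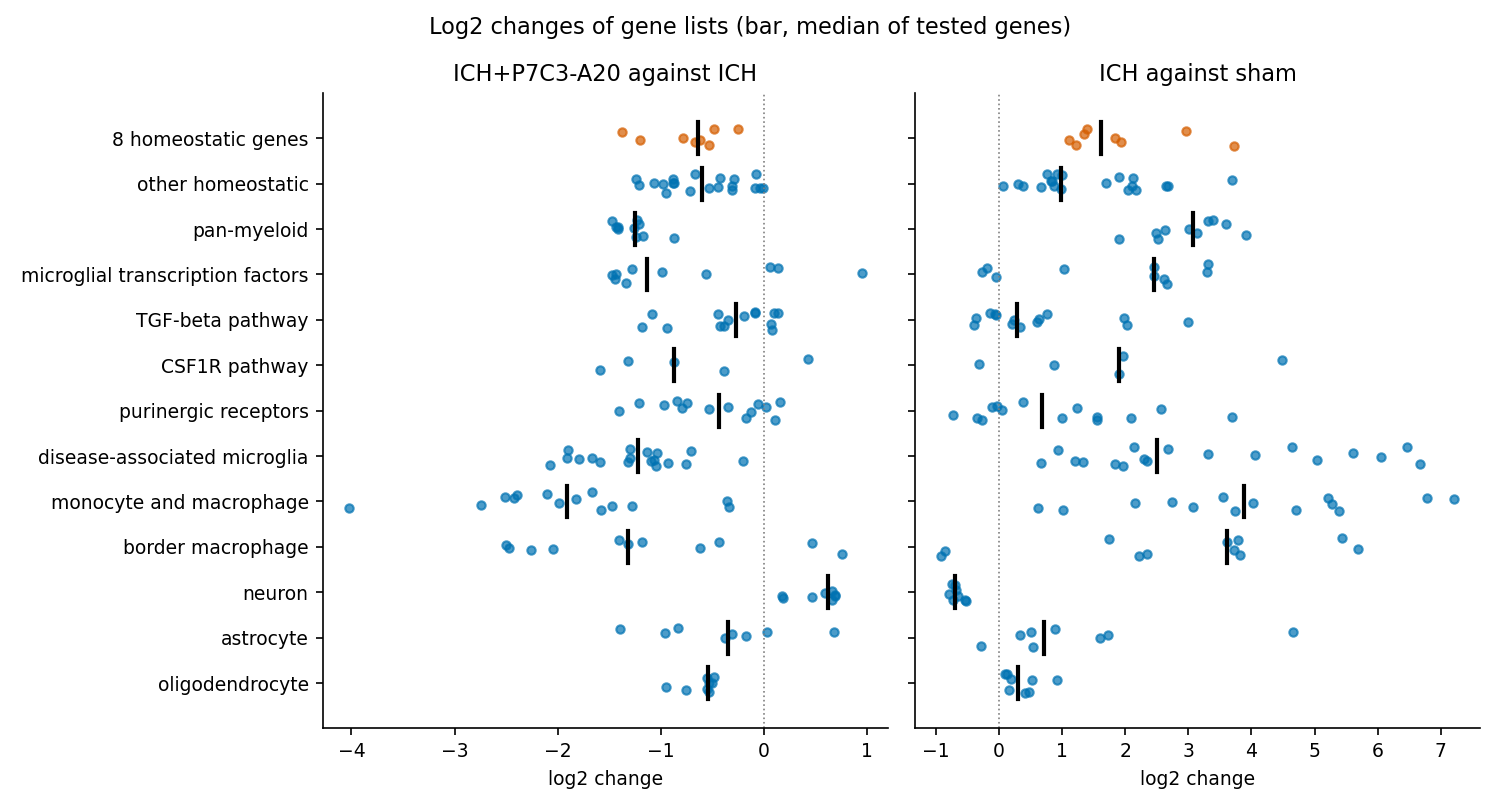
Log2 change of each tested gene of 13 lists in ICH+P7C3-A20 against ICH (left) and in ICH against sham (right), with a bar at each list's median. The 8 homeostatic genes (top row) have medians of -0.64 and 1.62, the pan-myeloid genes -1.25 and 3.08, and the monocyte and macrophage genes -1.91 and 3.89.

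Of 10 microglial transcription factors 7 rose in ICH, among them Irf8 (2.61 ± 0.16, edgeR adjusted p = 6.31e-06) and Runx1 (3.30 ± 0.31, edgeR adjusted p = 3.97e-05), against 1.12 for Sall1. Relative to ICH, 6 fell and 1 rose in ICH+P7C3-A20, with Irf8 at -1.34 ± 0.16 (edgeR adjusted p = 0.00596), and 3 fell without ICH+P7C3-A20 1 or without ICH 1, 2 without ICH 2. The 1 that rose, Mef2c (edgeR adjusted p = 0.0339), named after its values were seen, lost its call without ICH 1, ICH 2, ICH 3 or ICH+P7C3-A20 1. In the TGF-beta pathway 6 of 14 genes rose in ICH (median 0.29): the receptor gene Tgfbr2 by 1.98 ± 0.14 (edgeR adjusted p = 8.73e-06), Nrros, which anchors latent TGF-beta on microglia, by 2.03 ± 0.17 (edgeR adjusted p = 2.06e-05) and the ligand gene Tgfb1 by 3.00 ± 0.29 (edgeR adjusted p = 4.27e-05). Of the 14, 4 fell in ICH+P7C3-A20 against ICH, and 2 without ICH 1, ICH 2, ICH+P7C3-A20 1 or ICH+P7C3-A20 2.

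For the CSF1 receptor, on which microglial survival depends, the receptor gene Csf1r rose by 1.904 ± 0.18 in ICH (edgeR adjusted p = 4.39e-05) and its ligand gene Csf1 by 1.96 ± 0.20 (edgeR adjusted p = 6.49e-05), while the neuronal ligand gene Il34 had a value of -0.32 ± 0.17 that did not pass (edgeR adjusted p = 0.216). The GM-CSF receptor subunit genes Csf2rb and Csf2ra rose by 4.49 ± 0.36 (edgeR adjusted p = 1.55e-05) and 0.87 ± 0.18 (edgeR adjusted p = 0.00532). Csf1, Csf1r and Csf2rb fell in ICH+P7C3-A20 against ICH, by 1.32 ± 0.20, 0.87 ± 0.18 and 1.59 ± 0.31 (edgeR adjusted p 0.00684, 0.0164 and 0.0143), and 1 of the 3 without ICH 2.

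P2ry12 and P2ry13 belong to a wider purinergic system. Of 14 other genes, for purine receptors, nucleotide-degrading enzymes and the channel pannexin (Panx1), 7 rose and 1 fell (2 without sham 2, 0 without ICH 2, ICH 3 or sham 3) in ICH (median 0.69), among them P2ry6, P2rx7 (1.55 ± 0.14, edgeR adjusted p = 3.53e-05) and P2rx4 (1.24 ± 0.14, edgeR adjusted p = 0.000105). P2rx7 and P2rx4 encode ATP-gated channels. ICH+P7C3-A20 against ICH gave 4 that fell, 3 without ICH+P7C3-A20 1 and 2 without ICH 2. The receptor genes closest to P2ry12 and Gpr34 in family or position were called for 1 of 4 tested. P2ry14, Lpar4 and Gpr174 had log2 changes of 0.38 ± 0.24, 0.18 ± 0.28 and 0.24 ± 0.73 in ICH that did not pass (edgeR adjusted p 0.292, 0.715 and 0.863). Gpr171, with 0.212 to 0.495 FPKM in ICH and at 0 in every sham library, was called higher (edgeR adjusted p = 0.00152). Gpr82 was too low to be tested.

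P2ry12 is also a platelet receptor. Of 5 tested platelet markers 2 were called higher in ICH, Treml1 (edgeR adjusted p = 0.00464, at 0 in sham) and Itga2b (1.20 ± 0.28, edgeR adjusted p = 0.0102). The 6 listed markers summed to 0.919 to 1.45 FPKM in ICH+P7C3-A20, 1.04 to 1.77 FPKM in ICH and 0.422 to 0.66 FPKM in sham, with Gp6 at 0 in ICH+P7C3-A20 and in ICH. P2ry12 itself averaged 25.7 FPKM in ICH+P7C3-A20, 32.0 FPKM in ICH and 13.2 FPKM in sham, and the part of platelets in it was not tested.

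Selplg is also carried by leukocytes. Neutrophil markers were called higher in ICH for 4 of 7 tested genes, among them the receptor gene Csf3r (2.52 ± 0.26, edgeR adjusted p = 6.29e-05), and the 10 listed summed to 6.43 to 11.3 FPKM in ICH+P7C3-A20, 12.5 to 20.6 FPKM in ICH and 2.05 to 3.31 FPKM in sham, with Ly6g at 0 in ICH and sham and Cxcr2 at 0 in sham. Lymphocyte markers summed to 5.20 to 9.07 FPKM in ICH+P7C3-A20, 8.63 to 10.4 FPKM in ICH and 10.4 to 17.0 FPKM in sham, with Cd3d at 0 in ICH+P7C3-A20 and sham. Most of this sum was Cd4, which averaged 6.79 FPKM in ICH+P7C3-A20, 8.42 FPKM in ICH and 13.7 FPKM in sham. The sum therefore does not follow the other listed markers, such as Cd8a (0.0414 FPKM in ICH+P7C3-A20, 0.0992 FPKM in ICH, 0 in sham) and Cd3g (0.0162, 0.106 and 0.00882 FPKM in the same groups), which were highest in ICH. Of 5 tested, Cd8a was called higher in ICH (edgeR adjusted p = 0.0166), a count that was 0 without ICH 1 and 2 without ICH 3. Cd4 was called lower (edgeR adjusted p = 0.0283), a call that ended without ICH 2, ICH 3, sham 1 or sham 3. Of 8 selectins and enzymes that act on PSGL-1, 6 were called higher in ICH, with the glycosyltransferase gene Gcnt1 at 2.82 ± 0.22 (edgeR adjusted p = 1.24e-05) and the endothelial and platelet selectin gene Selp at 5.70 ± 0.56 (edgeR adjusted p = 5.09e-05). The part of blood cells in the Selplg level was not tested.

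Fcrls resembles Fc receptors in sequence. In ICH 5 of 6 tested Fc receptor and Fc receptor-like genes rose, with Fcgr3 at 3.06 ± 0.20, Fcgr2b at 3.92 ± 0.27 and Fcgr1 at 3.16 ± 0.22 (edgeR adjusted p 6.84e-06, 7.67e-06 and 7.73e-06), beside 3.72 for Fcrls. Relative to ICH, 4 of the 6 fell in ICH+P7C3-A20, with Fcgr3 at -1.14 ± 0.19, Fcgr2b at -1.62 ± 0.24 and Fcgr1 at -1.81 ± 0.21 (edgeR adjusted p 0.00768, 0.00684 and 0.00596), beside -1.38 for Fcrls.

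Markers of other brain cells give the tissue context. Neuronal markers fell in 8 of 8 in ICH against sham (median -0.69), with Nefl, Nefm and Rbfox3 at -0.74 ± 0.14, -0.68 ± 0.15 and -0.65 ± 0.15 (edgeR adjusted p 0.00299, 0.0062 and 0.0109), a count that was 3 without ICH 1 or ICH 3, 5 without ICH 2 and 4 without sham 1. Over all tested genes 2283 of 21900 were called lower with all libraries. They were 1474 of 22716 without ICH 1, 1354 of 22664 without ICH 2, 1374 of 22628 without ICH 3 and 1508 of 22704 without sham 1. Astrocyte markers rose in 7 of 8 (median 0.72), led by the filament gene Gfap at 4.66 ± 0.28 (edgeR adjusted p = 6.31e-06). This count of 7 was 5 to 6 with any 1 library of the 2 groups left out. Those fits called 2701 of 22628 to 3345 of 22695 tested genes higher, against 3418 of 21900 with all libraries. Endothelial markers rose in 8 of 8 (median 1.46), led by Vwf at 2.85 ± 0.16 (edgeR adjusted p = 6.02e-06). Oligodendrocyte markers rose in 1 of 8 (median 0.30), Cldn11 at 0.92 ± 0.26 (edgeR adjusted p = 0.0223), a call that ended without ICH 1, ICH 3, sham 1 or sham 3. In ICH+P7C3-A20 against ICH 2 neuronal markers rose, 4 endothelial and 1 oligodendrocyte markers fell, and of the astrocyte markers 3 fell and 1 rose. The 2 neuronal markers were 0 without ICH 1, ICH 2, ICH 3 or ICH+P7C3-A20 1 and 4 without ICH+P7C3-A20 2. Genes called higher over all tested were 590 with all libraries, and 86, 106, 79, 130 and 741 in these fits, in the same order. The 4 endothelial markers were 1 without ICH 1 or ICH 2 and 2 without ICH 3 or ICH+P7C3-A20 1, and the 3 astrocyte markers that fell were 1 without ICH 2. The 1 astrocyte marker that rose was 0 without ICH 1, ICH 3, ICH+P7C3-A20 1 or ICH+P7C3-A20 3. The 1 oligodendrocyte marker, again Cldn11 (edgeR adjusted p = 0.0453), was 0 without ICH 1, ICH 2, ICH 3 or ICH+P7C3-A20 1, and the count was 2 without ICH+P7C3-A20 2. Whether the cell makeup of the samples bears on the 8 genes was not tested.

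The genes most like the 8 were sought over the 9 libraries, as the smallest root mean square difference between a gene's centred log2(FPKM + 0.1) profile and the mean centred profile of the 8, among genes with a mean of at least 1 FPKM. The nearest was Cx3cr1, at 0.0744 log2 units, itself a classical microglial gene, followed by the ETS-family factor gene Elk3 (0.1), the ribonuclease gene Rnase4 (0.116), Tgfbr2 (0.118), the cholesterol exporter gene Abca1 (0.125) and Tmem176a (0.127). Their mean levels ranged from 3.88 FPKM for Elk3 to 23.2 FPKM for Cx3cr1. For comparison, Gpr34 was nearest of the 8 genes to their own mean profile (0.191) and Fcrls farthest (0.768), with Olfml3 next to it (0.421). Profiles of bulk tissue share their libraries and say nothing of shared control.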

How the data were processed

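RNA with poly(A) tails from the brains of 9 mice went into libraries whose second strand was marked, per the labels' protocols. The submitters' processing notes name HISAT2 2.0.4, StringTie 1.3.4d and cutadapt 1.9, while the genome build, strand setting and counting step were not found in the labels or the table. The authors deposited FPKM, scaled by length and library total, and whole-number estimated counts for 35112 genes, of which 32009 have the identical position and strand in GENCODE M21.

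The deposited estimated counts were used whole. In R 4.3.3, edgeR 4.0.16 filtered genes with filterByExpr (minimum count 10, total 15), applied TMM scaling and fitted 3 group means to 9 libraries by robust quasi-likelihood (6 residual degrees of freedom). Tests were two-sided, adjusted by Benjamini-Hochberg over 21900 genes, and called under 0.05. Alternatives were DESeq2 1.42.0, limma 3.58.1 on log2(FPKM + 1) or log2(FPKM + 0.1) (FPKM of at least 1 in 3 libraries), other scalings and filters, fits of 2 groups, a block for replicate number, and leaving out single libraries. Ratios used scipy 1.17.1 and figures matplotlib 3.10.9 in Python 3.11.15. The fit was also run on simulated counts with far fewer changed genes than were called here. That run checked the code and does not measure error rates in these data.

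The 8 genes and the 20 other lists were chosen with earlier results of these data known, so their counts are descriptions. There are 10 genes on more than 1 list, Csf1r among them. Named were all 8 genes, up to 3 genes per list with the smallest p in ICH against sham (more for lists of 6 or fewer), overlapping or adjacent genes, and the 6 nearest profiles without clone or model names. Some genes that this rule names are not reported here.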

Additional observations from a re-analysis of the deposited data

How the results depend on the processing

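The 8 genes kept their direction in all 3 comparisons under every alternative fit, and the 8 calls of ICH against sham were made in all 16. The number of all tested genes called higher there ranged from 2493 of 14644 to 3779 of 24825. In ICH+P7C3-A20 against ICH the count called lower, 3 in the report, was 6 with DESeq2, 5 with library totals alone, 5 with limma on log2(FPKM + 1), and 2 to 6 with a library left out. The calls over all tested genes shifted too. Those called lower were 1324 of 21900 in the report and 2150 of 18235 with DESeq2. They were 1248 of 21900 with library totals alone and 1240 of 14644 with that limma fit. With a library left out they were 465 of 22664 to 1213 of 22622. DESeq2 added Gpr34, Sall1 and Selplg to the 3, while both counts of 5 held Fcrls, Olfml3, P2ry13, Sall1 and Selplg but not Tmem119. In ICH+P7C3-A20 against sham the count called higher, 7 in the report, was 4 with the replicate block, 3 with the 2 groups alone, and 3 to 7 with a library left out. Over all tested genes, 1002 of 21900 were called higher in the report, 830 of 21900 with the block and 393 of 20832 with the 2 groups alone. With a library left out they were 496 of 22694 to 1244 of 22720. Same-numbered libraries did not deviate together (correlations across genes of -0.111 to 0.0729, none over 0.1). No pairing by number was seen, but with 3 libraries in a group such correlations cannot exclude it. Under the replicate block the other counts of the 8 genes were again 8 and 3. The 6 genes lower relative to pan-myeloid genes in ICH against sham were 6 also with a pseudocount of 1. A gene with no change would be lower there too, so this count sets no gene apart. The cause of these shifts was not tested. Each group had 3 mice and each library at least 51537047 counts, and how far depth or the spread between mice limits these comparisons was not compared.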
